A study of Homo sapiens with 4 samples.

Results

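Chromatin accessibility at the genes of 8 neural crest transcription factors (PAX3, TFAP2A, TFAP2B, FOXD3, SOX9, SOX10, SOX5 and SOX6) was examined in A375 cells, an established human melanoma line, after octanoate treatment. Open DNA was tagged with Tn5 transposase (ATAC-seq). Cells in DMEM with serum were given octanoate (a saturated fatty acid of medium chain length) at 1 mM for 48 h, or isopropanol as its vehicle over the same time. Each group has 2 libraries, 4 in all. Both groups are the same line and differ only in the treatment. The labels do not say whether the libraries of a group came from separate cultures, so p-values measure the spread between these libraries, which may be technical. A member region was any region of the authors' deposited table that overlapped the RefSeq GRCh38 span of 1 of the 8 genes extended by 10 kb on both sides. This gave 111 of the 125986 regions listed.

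The neural crest is a migratory cell population of the vertebrate embryo, and melanocytes, the pigment cells from which melanoma arises, descend from it. PAX3 and the AP-2 factors TFAP2A and TFAP2B act early, at the border of the neural plate. FOXD3, SOX9 and SOX10 specify the crest, and SOX10 with PAX3 activates MITF, the master regulator of melanocytes. SOX5 and SOX6 belong to the SOXD group. This group binds DNA through the same kind of HMG domain but has no activation domain of its own. SOX5 can oppose SOX10 at melanocyte genes.

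No region of the 8 genes changed past the threshold. In the authors' deposited table, 0 of the 12 member regions tested passed an adjusted p of 0.05 (DESeq2 with Benjamini-Hochberg adjustment over all regions tested), against 1.02% of the 11185 regions tested in the whole series. A region counts as tested here when its mean reached 63.8 normalized reads, the lowest mean that received an adjusted p under 1. The remaining 99 member regions did not reach that mean and count as not tested. At an unadjusted p under 0.05, 1 of the 12 was higher, within TFAP2A (8.33%, against 14.8% of all tested regions), and 0 were lower (against 0.107%). The adjusted p of the 12 ran from 0.330 to 0.932 in the authors' deposited table. At an adjusted p under 0.1 the count was again 0, against 2.98% of all tested regions. After the median of all tested regions was subtracted from every fold change it was also 0, against 0.0536%. Of the 12 log2 fold changes 3 were below 0, against 14.3% of tested regions.

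The 8 genes held very different numbers of regions. SOX5 had 45 regions over a span of 1033 kb and SOX6 had 28 over 772 kb, together 65.8% of all member regions. TFAP2B had 11, TFAP2A 10, PAX3 7, SOX10 4, and FOXD3 and SOX9 3 each. Per length the order was other: TFAP2A had 23.3 regions per 100 kb of window and TFAP2B 22.3, while SOX5 had 4.27 and SOX6 3.54. Of the 111 regions, 26 also overlapped another annotated gene. All 4 at SOX10 lay in POLR2F, an RNA polymerase subunit gene whose span covers SOX10, so they cannot be assigned to SOX10 alone.

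Start sites were mostly open, as they were over the whole series. The table of RefSeq promoters used here holds 11 starts for 6 of the genes, and 7 of them lay in a listed region, while 64.9% of the 22175 protein-coding starts in that table did. For SOX9 and SOX10, which were not matched in it, starts were taken as the end of the gene span where transcription is known to begin, and both lay in a listed region. The 4 starts outside any region were the first start of TFAP2A, 1505 bp from the nearest region, and 3 internal starts of SOX6.

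The bases just before 4 of the covered starts are shown because they hold letters that members' own protein families recognise. They are the 250 bases before the start in RefSeq GRCh38.p14, 5′ to 3′ on the gene's strand. Capitals mark the SOX cores ACAATG and ACAAAG on either strand and the AP-2 core GCCNNNGGC, which reads the same on both strands. SOX5 is at chr12:24562492-24562741 on the minus strand, the first start of SOX6 is at chr11:16738478-16738727 and its internal start at chr11:16356547-16356796, both on the minus strand, and FOXD3 is at chr1:63322317-63322566 on the plus strand.
SOX5: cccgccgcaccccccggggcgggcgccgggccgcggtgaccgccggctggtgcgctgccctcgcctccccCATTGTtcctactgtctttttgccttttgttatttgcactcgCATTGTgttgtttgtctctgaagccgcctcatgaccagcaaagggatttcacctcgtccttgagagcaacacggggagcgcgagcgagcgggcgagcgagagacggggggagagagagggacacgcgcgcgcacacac
SOX6 first start: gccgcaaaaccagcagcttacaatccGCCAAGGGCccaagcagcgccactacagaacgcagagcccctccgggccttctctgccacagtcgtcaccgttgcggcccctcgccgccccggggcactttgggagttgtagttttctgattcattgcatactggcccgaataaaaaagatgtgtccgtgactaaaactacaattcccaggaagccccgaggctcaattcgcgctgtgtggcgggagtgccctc
SOX6 internal start: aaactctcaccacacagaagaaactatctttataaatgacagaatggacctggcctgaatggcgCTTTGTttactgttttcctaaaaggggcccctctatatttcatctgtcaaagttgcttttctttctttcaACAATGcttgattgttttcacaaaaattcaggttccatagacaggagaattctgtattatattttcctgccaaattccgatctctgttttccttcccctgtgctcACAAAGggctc
FOXD3: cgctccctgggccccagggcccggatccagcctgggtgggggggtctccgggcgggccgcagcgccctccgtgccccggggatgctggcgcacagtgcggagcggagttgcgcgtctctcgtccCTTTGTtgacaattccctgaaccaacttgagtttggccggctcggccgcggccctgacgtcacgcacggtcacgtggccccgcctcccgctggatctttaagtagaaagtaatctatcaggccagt

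The SOX5 stretch had 2 matches of ACAATG, both on the opposite strand, beginning 180 and 138 bases before the start. The internal SOX6 start had 1 match of ACAATG and 2 of ACAAAG, and FOXD3 had 1 of ACAAAG, 126 bases before its start. The first SOX6 start had the AP-2 core 224 bases before it. The same letters are common: of 35116 stretches of this length in the table, 9.29% held ACAATG, 13.7% ACAAAG and 19.8% GCCNNNGGC. None of these 3 motifs was in the stretches of PAX3, TFAP2B or either TFAP2A start. TATAAA and CCAAT, also searched on both strands, were in 10.7% and 32.0% of the table's stretches. TATAAA was found at the first TFAP2A start, beginning 30 bases before it, at TFAP2B and at 3 of the 4 internal SOX6 starts. CCAAT was found at PAX3, TFAP2B and 3 internal SOX6 starts. A further internal SOX6 start, at 16402863, lay outside any region but 90 bp from the nearest, and had 1 match of ACAATG. The match began 114 bases before the start, inside that nearest region (16402953 to 16403615). Base composition set the starts apart from each other. SOX5 had 65.6% G or C and 27 CG pairs, FOXD3 67.6% and 24, and the covered TFAP2A start 71.2% and 15. TFAP2B had 40.8% and 5, and the internal SOX6 start 39.2% and 2, against medians of 58.0% and 11 over the table.

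The 9 regions over a start were wider and stronger than the other 102 member regions. Their median width was 2284 bp against 499.5 bp, and their median mean count in the authors' deposited table was 83.3 against 13.3 normalized reads. Regions over protein-coding starts in the whole series had the same order, with a median width of 1207 bp against 414 bp and a median mean of 66.1 against 11.1 in the authors' deposited table. Per kb of region, the first start of SOX6 was highest at 84.5 normalized reads, followed by PAX3 at 50.3, TFAP2A at 46.0 and FOXD3 at 43.3. The lowest were SOX9 at 25.3 and TFAP2B at 21.7. These levels are the authors' means over all 4 libraries, so their spread between libraries is unknown. The first SOX6 start region also covers an end of C11orf58, and that of PAX3 overlaps CCDC140.

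**Figure D1:**
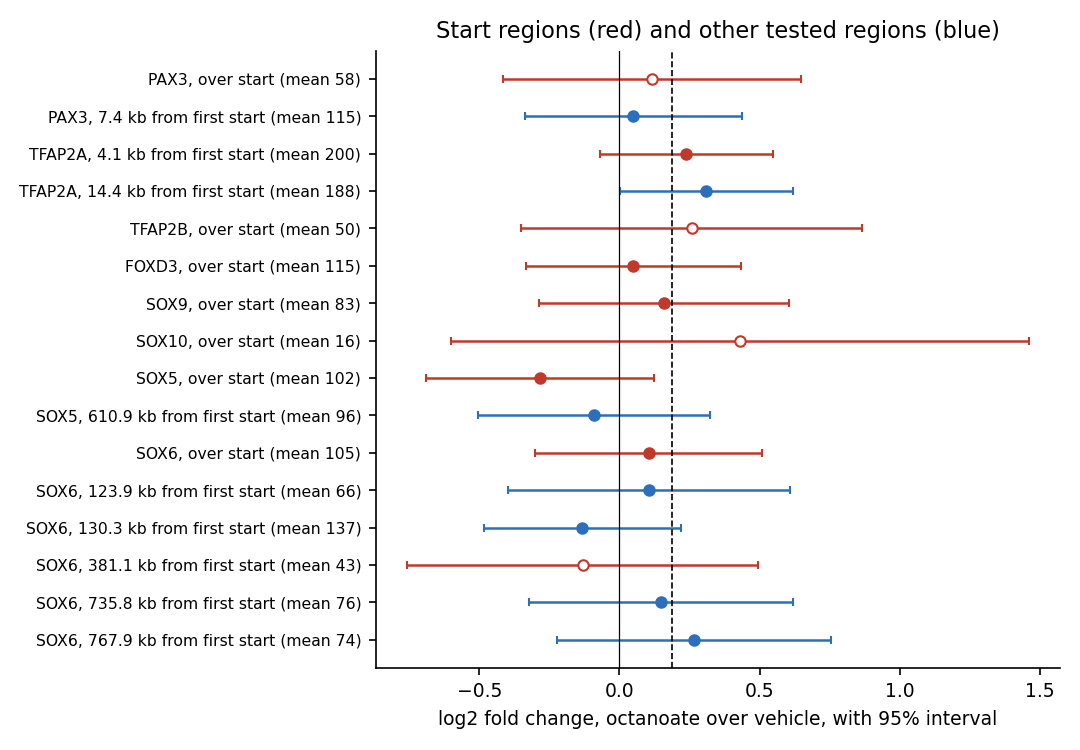
Log2 fold change of octanoate over vehicle (x axis) with 95% intervals from the deposited standard errors, for the 9 regions over a start site (red) and the 7 other tested regions (blue) of the 8 genes, with distances to the gene's first start. Filled points are tested regions, open points are not, the solid line is 0 and the dashed line is the median of all tested regions, 0.19. The SOX5 start region lies farthest to the left, and the interval of 1 TFAP2A region, 0.003 to 0.62, is the one that leaves out 0.

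Values for single libraries are not in the table. The group levels given below were therefore implied from the deposited mean and fold change, with both groups weighted equally, and they carry no spread of their own. Fold changes are on the log2 scale, octanoate over vehicle, with the authors' standard error (SE) and a 95% interval computed from it. Because the assay pooled many cells, a change in some cells and a smaller change in every cell cannot be told apart.

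PAX3, a paired-box factor of the plate border that is kept in melanoblasts, had 7 regions, and all overlapped its span. In the authors' deposited table its strongest region (chromosome 2, 222290407 to 222291640), 7.36 kb downstream of the start, had a mean of 115.0 normalized reads. The implied levels there were 113.0 for vehicle and 116.9 for octanoate. The authors' deposited table gives a log2 fold change of 0.05 (SE 0.20, interval -0.34 to 0.44, adjusted p 0.932). The region over the start (222298250 to 222299406) stood at 0.12 (SE 0.27, interval -0.42 to 0.65) in the authors' deposited table. Both strong regions thus had nearly equal implied levels in the groups. The median over the 7 PAX3 regions was -0.54, but it came from 4 weak regions with means of 3.88 to 5.52 in the authors' deposited table, whose SEs ran from 0.94 to 1.15. With the regions at or above the median mean of the whole table, 3 in number, the PAX3 median was 0.05.

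TFAP2A, the AP-2 alpha factor, had the 2 regions with the highest means of the 111, at 46.0 and 103.8 normalized reads per kb. One (chromosome 6, 10411168 to 10415517) covers its second start and overlaps TFAP2A-AS1, with a mean of 200.2 normalized reads in the authors' deposited table. Its implied levels were 183.7 for vehicle and 216.8 for octanoate. The authors' deposited table gives a log2 fold change of 0.24 (SE 0.16, interval -0.07 to 0.55, adjusted p 0.478). The other (10403468 to 10405283), inside the gene and over TFAP2A-AS2, had implied levels of 168.2 and 208.6. It is the 1 tested member region with an unadjusted p under 0.05. The authors' deposited table gives it 0.31 (SE 0.16, p 0.0476, adjusted p 0.330). Both TFAP2A values lay close to the median of all tested regions, 0.19, so relative to that median they were 0.05 and 0.12. The other 8 TFAP2A regions had means of 4.50 to 47.6 and ran from -0.73 to 0.53 in the authors' deposited table.

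TFAP2B, the AP-2 beta factor, had no tested region. Its strongest of 11 lies over the start (chromosome 6, 50818490 to 50820773), with a mean of 49.6 and a log2 fold change of 0.26 (SE 0.31, interval -0.35 to 0.87) in the authors' deposited table. Implied levels there were 45.2 for vehicle and 54.0 for octanoate. Regions followed each other through the first part of the gene: 4 of them, from the start region to 50826428, had means of 19.3 to 49.6 and fold changes from -0.39 to 0.31 in the authors' deposited table. Of the 11 regions 8 were above 0 and every interval held 0.

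FOXD3, a forkhead factor that keeps crest cells uncommitted and restrains the pigment fate, is a short gene of 2.56 kb, and 1 region lies over its start and most of its length (chromosome 1, 63322048 to 63324691). This region also overlaps FOXD3-AS1. In the authors' deposited table it had a mean of 114.5 and a log2 fold change of 0.05 (SE 0.20, interval -0.33 to 0.43, adjusted p 0.931). The implied levels were 112.6 for vehicle and 116.5 for octanoate. A region 4.60 kb upstream, in LINC00466, stood at 0.09 (SE 0.29), and a weak downstream region at -0.36 (SE 0.65), in the authors' deposited table.

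SOX9 and SOX10 are the SOXE factors of this set. SOX9 acts in early crest and in cartilage, and SOX10 in melanoblasts and glia. The SOX9 start region (chromosome 17, 72119817 to 72123111) had a mean of 83.3 and a log2 fold change of 0.16 (SE 0.23, interval -0.29 to 0.61, adjusted p 0.779) in the authors' deposited table. Its implied levels were 78.7 for vehicle and 87.9 for octanoate. The 2 upstream regions of SOX9, in SOX9-AS1, had means of 6.47 and 12.9 and stood at 1.27 (SE 0.87) and 0.45 (SE 0.62) in the authors' deposited table. They give SOX9 the highest median of the 8 genes, 0.45, while the region that holds 81.2% of its summed mean lay below the tested median.

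SOX10 had no tested region among its 4. In the authors' deposited table its start region (chromosome 22, 37984308 to 37984837) had a mean of 15.7 and a log2 fold change of 0.43 (SE 0.53, interval -0.60 to 1.46). Its strongest region lies 15.3 kb downstream of the start (37967736 to 37969301), with a mean of 50.6 and a log2 fold change of -0.24 (SE 0.29, interval -0.82 to 0.33) in the authors' deposited table. Implied levels were 13.4 and 18.0 at the start and 54.8 and 46.4 at the downstream region, for vehicle and octanoate. The 2 stronger SOX10 regions thus had opposite signs, and both intervals held 0.

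**Figure D2:**
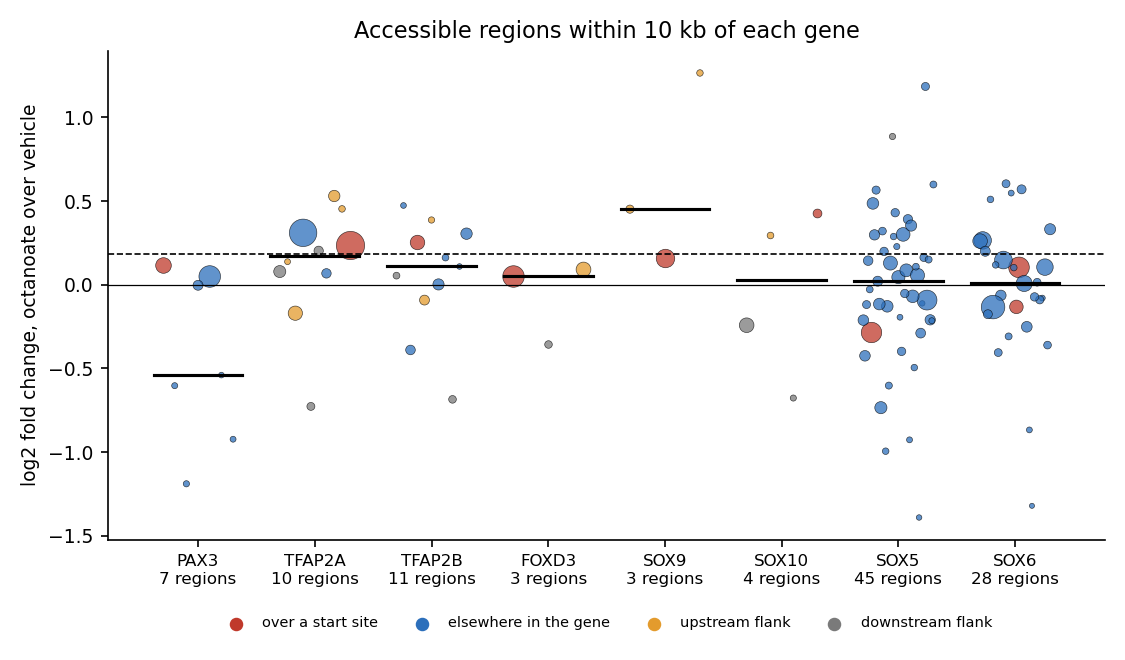
Log2 fold change of octanoate over vehicle for each of the 111 regions, by gene, with dot area set by the mean normalized read count and colour by place in the gene. Black bars are gene medians, the solid line is 0 and the dashed line is the median of all tested regions, 0.19. The 12 tested regions, the largest dots, lie between -0.28 and 0.31, and the values farthest from 0 belong to small dots.

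The region over the first start of SOX5 stood below 0, the 1 of 7 such member regions to do so. The first start of TFAP2A has none. Over protein-coding starts in the whole series, the authors' deposited table puts 2573 of 10867 regions below 0. In that table the SOX5 region (chromosome 12, 24560908 to 24564355) had a mean of 102.2 and a log2 fold change of -0.28 (SE 0.21, interval -0.69 to 0.12, adjusted p 0.534). Its implied levels were 112.2 for vehicle and 92.2 for octanoate. Relative to the median of all tested regions the value was -0.47. After that median was subtracted from every region, its unadjusted p was 0.0229 and its adjusted p 0.991 (normal p from the deposited SE, Benjamini-Hochberg). It was then the 1 tested member region with an unadjusted p under 0.05, against 1.01% of tested regions lower and 3.16% higher, while the TFAP2A region at 10403468 had 0.430. The other tested region of SOX5 (23949204 to 23951577) lies 611 kb downstream of the start. The authors' deposited table gives it a mean of 96.4 and -0.09 (SE 0.21, interval -0.51 to 0.32, adjusted p 0.874).

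Inside SOX5, 17 of the 45 regions were gathered 450 to 550 kb downstream of the start and held 40.9% of the gene's summed mean. These limits were chosen after the positions were seen. Their means ran from 5.32 to 46.9 in the authors' deposited table, 9 were above 0 and 8 below, and their median log2 fold change was 0.06. The stretch held the one SOX5 region with an unadjusted p under 0.05 (24062456 to 24063280), named after its value was seen. In the authors' deposited table this region had a mean of 33.5, below the limit for testing, and a log2 fold change of -0.73 (SE 0.36, interval -1.45 to -0.02, p 0.0439). Its implied levels were 41.8 for vehicle and 25.2 for octanoate. Over all listed regions, 0.179% were lower at that threshold and 3.58% were higher. Its neighbours on both sides, within 4 kb, stood at -0.29 (SE 0.47) and -0.12 (SE 0.38) in the authors' deposited table.

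SOX6 had the most tested regions of the 8 genes, 5 of its 28. The strongest (chromosome 11, 16604300 to 16608222), 130.3 kb downstream of the first start, had a mean of 137.3 and a log2 fold change of -0.13 (SE 0.18, interval -0.48 to 0.22, adjusted p 0.762) in the authors' deposited table. The region over the first start (16737917 to 16739153) had implied levels of 100.8 for vehicle and 108.3 for octanoate. The authors' deposited table gives it 0.10 (SE 0.21, interval -0.30 to 0.51, adjusted p 0.848). The remaining 3 tested regions had means of 65.6 to 75.8 and stood at 0.11, 0.15 and 0.27 in the authors' deposited table, with SEs of 0.24 to 0.26. The region over the internal start shown above (16356286 to 16357406) had a mean of 42.7 and -0.13 (SE 0.32) in the authors' deposited table. Both genes thus had tested regions at the first start and far inside the gene. The 2 of SOX5 were below 0, and those of SOX6 lay on both sides of it.

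**Figure D3:**
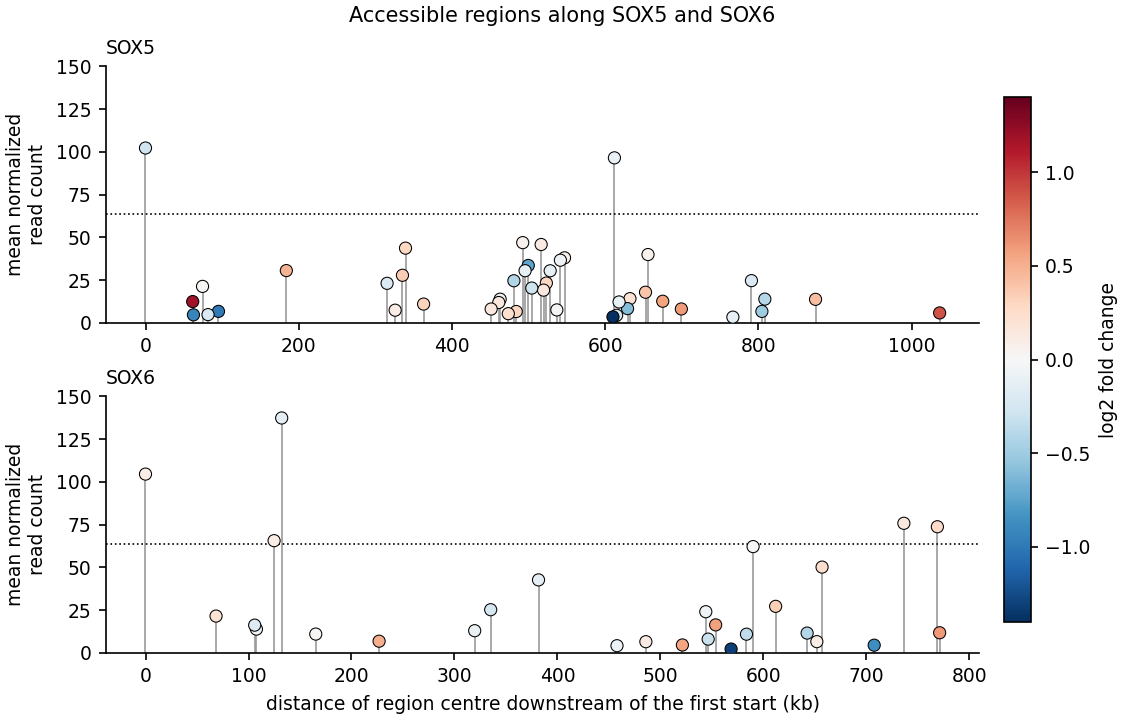
Mean normalized read count over the 4 libraries (y axis) of the 45 SOX5 and 28 SOX6 regions, by the distance of the region's centre downstream of the gene's first start in kb (x axis). Colour is the log2 fold change of octanoate over vehicle and the dotted line is the mean of 63.8 from which regions were tested. The SOX5 start region and the region 611 kb downstream stand above the line, as do 5 SOX6 regions.

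Implied levels were also summed over each gene's regions. For vehicle and octanoate they were 93.3 and 111.9 at SOX9, 517.7 and 598.0 at TFAP2A, 842.2 and 873.1 at SOX6 and 181.7 and 189.5 at TFAP2B. They were 174.1 and 178.9 at FOXD3, 986.1 and 977.2 at SOX5, 214.2 and 212.1 at PAX3 and 80.96 and 76.2 at SOX10. The log2 ratios of these sums ran from -0.09 at SOX10 to 0.26 at SOX9, against 0.21 for all nuclear regions together. No error can be given for them, since no library has a value.

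The 8 genes were then set beside the whole table. By the authors' deposited table, the median log2 fold change was 0.05 over the 111 regions and 0.23 over all nuclear regions. Of the member regions 56.8% were above 0, against 72.1% of nuclear regions. The same order held for regions of at least 20 normalized reads (medians 0.05 and 0.21) and for weaker ones (0.06 and 0.25) in the authors' deposited table. In tested regions alone the medians lay closer together, at 0.10 and 0.19. Gene medians lay below the median of their own chromosome in 7 of 8 cases, the exception being SOX9, while those chromosome medians ran from 0.20 to 0.25. These are descriptions of regions that share 4 libraries, with no test of the difference. The interval held the tested median, 0.19, in 98.2% of member regions and in 98.3% of all nuclear regions. The 2 member regions whose interval left it out were the start region of SOX5 and the SOX5 region at 24062456, both below it.

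**Figure D4:**
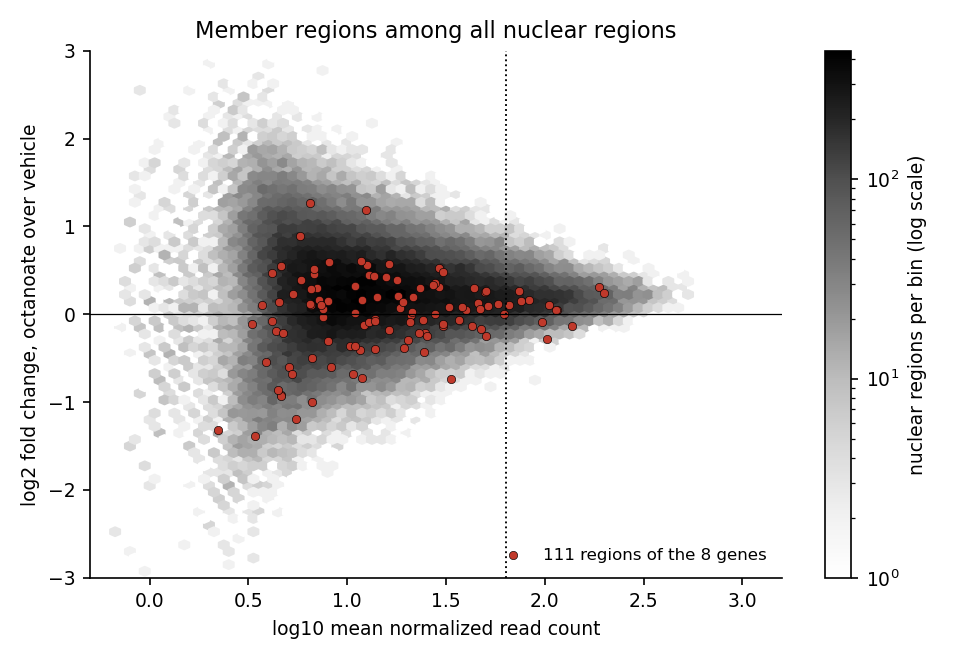
Log2 fold change of octanoate over vehicle (y axis) against the log10 mean normalized read count (x axis) for nuclear regions, shaded by their number per bin, with the 111 member regions in red. The dotted line is the mean of 63.8 from which regions were tested, and 31 nuclear regions fall outside the axes. The member regions lie within the cloud of all regions, 63 above 0 and 48 below.

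Other genes of the neural crest network were taken from a list of 28 chosen by role. They had 171 regions, 25 of them tested, and 1 passed an adjusted p under 0.05 in the authors' deposited table, against 1.02% of all tested regions. This region (chromosome 2, 8678266 to 8679637) lies at ID2, an inhibitor of basic helix-loop-helix factors, and rose by 0.62 (SE 0.16, adjusted p 0.0190) in the authors' deposited table. Its implied levels were 140.8 for vehicle and 216.8 for octanoate, and after the tested median was subtracted its adjusted p was 0.723. With adjustment over all regions of the table, tested or not, it did not pass either, and 0 regions of the list did. A second ID2 region (8680971 to 8682571) stood at 0.47 (SE 0.14, adjusted p 0.0696) in the authors' deposited table. At an unadjusted p under 0.05, 5 of the 25 tested regions of the list were higher, all at ID2 or ETS1, and 0 were lower, against 14.8% and 0.107% of all tested regions. In the authors' deposited table the medians over regions were 0.26 for the 8 plate border genes and 0.15 for the 8 crest specifiers. They were 0.14 for SOX4, SOX11 and SOX13, with SOX8 counted among the specifiers, and 0.03 for the 9 targets and receptors. Over all nuclear regions the median was 0.23. PAX7 gave 14 of 37 plate border regions, ETS1 25 of 47 specifier regions and MITF 25 of 73 target or receptor regions. A difference between the roles was not tested. MITF, the target of SOX10 and PAX3, had 25 regions, 1 of them tested, and their median was -0.06 (authors' deposited table). The tested MITF region, its strongest with a mean of 168.4, stood at 0.12 (SE 0.17, adjusted p 0.772) in the authors' deposited table.

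The reads behind each region were estimated. One read was worth 0.413 to 0.512 normalized reads in the 4 libraries, and no step could be tied to a labelled library. The strongest member region thus rested on 1565 to 1938 reads over all libraries and the weakest on 17.3 to 21.4. The median SE of the 12 tested member regions was 0.21, at which a log2 change of 0.40 reaches an unadjusted p of 0.05. The median SE of all 111 was 0.56, at which 1.10 is required. These sizes hold at the median SE only, and regions with a smaller SE, such as the TFAP2A region at 10403468, reached that p with a smaller change. Just inside and outside the 10 kb limit, TFAP2A had a region 9.97 kb away at 0.20 (SE 0.49) and one 12.4 kb away at 0.39 (SE 0.27) in the authors' deposited table. As a check of the labelled cell type, all 6 melanocytic marker genes had a listed region within 10 kb, but so did all 4 epithelial, 3 blood and 2 endothelial marker genes. The highest region mean per gene ran from 30.0 to 173.2 in the melanocytic list, 6.60 to 42.5 in the epithelial, 60.6 to 93.3 in the blood and 26.4 to 70.8 in the endothelial list (authors' deposited table). The melanocytic range overlaps each of the others, so listed regions alone did not single out the cell type.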

How the data were processed

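ATAC-seq of A375 cells was deposited as 1 table for octanoate against vehicle (2 libraries each), with 0 columns per library. Per the submitters' processing notes, the tools were Trim Galore, cutadapt, FastQC, Bowtie2, Picard, MACS2, featureCounts, DESeq2 and bedtools 2.29.1, with build hg38. Whether reads were shifted for the Tn5 insertion offset, which filters were used and how regions were merged are not given in the sources used here.

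Per the file headers, the deposited signal is a mean of normalized read counts, 1 value per region. The deposited log2 fold change comes with its SE, both on the log2 scale. The deposited score is the Wald statistic, equal to their quotient within 2.31e-14. The deposited p-value is its two-sided normal p, and the deposited adjusted p equalled Benjamini-Hochberg adjustment over the 11185 regions whose mean reached 63.8, and is listed as 1 in the other 114801. These were treated as not tested.

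With Python 3.11.15 and pandas 2.3.3, regions were matched to RefSeq GRCh38.p14 gene spans by overlap (coordinates counted from 1). The strand of SOX9 and SOX10 came from general knowledge. By rule, the regions named per gene are those at the start, with the highest mean, and tested. Other named regions (flanks of SOX9 and FOXD3, the SOX5 region at 24062456, and values given for neighbours or at the 10 kb limit) were chosen after their values were seen. Intervals are the deposited log2 fold change and 1.96 SE on both sides. The value of 1 read was found from the most frequent differences between 4 times the means; 100% of 2968 means under 3 were sums of whole reads times the 4 steps (within 1e-06), against 0% after a shift of 0.0005. Adjustment and centring were tested on simulated data. Members and lists were chosen with earlier results of these data known. Alternatives changed the extension, centring, filter, threshold and adjustment.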

Additional observations from a re-analysis of the deposited data

How the results depend on the processing

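The count of 0 member regions past the adjusted p threshold was 0 under all 7 alternatives run. With no extension and with the filter on the mean, the same 12 tested regions entered with the same adjusted p, and adjustment over all regions adds weak regions, so these 3 say nothing about stability. The others were 50 kb (14 tested regions), both centrings and an adjusted p under 0.1. The count of 1 at an unadjusted p under 0.05 became 2 after centring on the median of all nuclear regions, where both regions were lower: the SOX5 start region (p 0.0131) and the SOX6 region at 16604300 (p 0.0431). It was 1 after centring on the tested median, but there the region was the SOX5 start region, lower (p 0.0229), and not the TFAP2A region. It was the same TFAP2A region, higher, with no extension, 50 kb and the filter on the mean.

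The median over member regions, 0.05, turned to -0.132 after centring on the tested median and to -0.175 on the median of all nuclear regions, because the subtracted median exceeded it. Leaving out each gene gave 0.046 to 0.074, the 50 kb extension 0.093 and the tested regions alone 0.105. Gene medians turned likewise, on the tested median and the nuclear median in that order, to -0.016 and -0.059 (TFAP2A), -0.077 and -0.120 (TFAP2B), -0.137 and -0.180 (FOXD3), -0.157 and -0.1999 (SOX10), -0.165 and -0.208 (SOX5), and -0.175 and -0.218 (SOX6). On the nuclear median SOX9 was 0.223 and PAX3 -0.769. With no extension SOX5 was -0.0031, SOX9 0.160 and SOX10 0.429, the last pair from 1 region each. With 50 kb PAX3 was -0.0029. PAX3 was 0.050 both with the filter on the mean and in tested regions, where SOX9 was 0.160 and SOX5 -0.188. These moves come from fewer or other regions. TFAP2B and SOX10 had no tested region. A change of sign of a median was listed whatever its size. Any other move of a median was listed if it exceeded 0.21, the median SE of tested member regions.

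The network count of 1 was 2 at an adjusted p under 0.1, 0 with adjustment over all regions and 0 after centring on the tested median.

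No paired analysis was possible because single libraries have no values of their own here. Leaving out a replicate and count tests with other scalings were not run for the same reason.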
